A study of Mus musculus with 4 samples.

Results

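Among brain cells of 5XFAD mice, 2648 of 13820 cells were Cx3cr1-positive disease-associated microglia (DAM), here called members. They were chosen by their own reads: a member had at least 1 read of each of Trem2, Apoe, Cst7 and Cx3cr1 and no read of Cd3e, Cd79a or Ccr2. The first 4 genes mark the DAM state and the microglial lineage, and the last 3 mark T cells, B cells and monocytes. Members were compared with the 10512 other Trem2-positive cells, and with 683 counterparts that met every condition except that they had no Cx3cr1 read.

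Microglia are the resident macrophages of the brain. Around amyloid plaques many of them move from a homeostatic state, in which the fractalkine receptor CX3CR1 is high, to the DAM state. This change depends in part on TREM2, a lipid-sensing surface receptor. It brings up the lipid carrier apolipoprotein E and cystatin F, the protease inhibitor encoded by Cst7, while homeostatic genes go down. A cell with reads of both DAM genes and Cx3cr1 thus carries transcripts of genes from both programmes, which does not show that both are active.

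The cells came from 4 male mice aged 9 months, all carrying the 5XFAD transgenes, which make the brain deposit amyloid plaques. The groups were 2 mice with both copies of Abi3 (Abi3+/+) and 2 with the gene deleted (Abi3-/-). The deletion is in all cells of the body from conception, and these mice were heterozygous for a Trem2 variant of the SJL strain. Cells of the right hemisphere without cerebellum or olfactory bulb were released at 4 °C and depleted of myelin, and reads of 397 immune genes were counted in 1 library per mouse. The library and the mouse cannot be told apart, and p-values measure only the spread between these 4 samples. Abi3 (chr11:95830072-95842476, mm10) was not on the panel, so its loss was not measured and the genotypes rest on the labels. Tmem119 and P2ry12, which define homeostatic microglia, were not on it either.

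Depth was 87117727 and 150756771 reads per library in Abi3-/- and 139841135 and 133496510 in Abi3+/+. Between 6 and 18 barcodes were shared by a pair of libraries, against 8.41 to 19.3 from random draws, and 1 of them was a member in both libraries of its pair. Library Abi3-/- 2 stood apart for several genes, among them S100a8, Qpct and Lat2. S100a8 was read in 359 of its kept cells against 13, 39 and 87 in Abi3-/- 1, Abi3+/+ 1 and Abi3+/+ 2. Qpct was read in 50.1% of its members against 3.59% to 4.25% in the other mice, and the 5th percentile of the nonzero Lat2 values was 1 read in it against 13 to 21 reads. Library Abi3+/+ 2 held few reads of some other genes. In it Maf was read in 3.40% of members against 17.3% to 29.9% in the other mice, Lipa in 2.27% against 18.1% to 23.1%, and Junb in 34.3% against 53.4% to 67.2%.

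There were 655 and 1138 members in Abi3-/- mice 1 and 2, and 502 and 353 in Abi3+/+ mice 1 and 2. The excluded genes removed 3, 18, 10 and 3 cells that had reads of all 4 positive genes, in this order of mice, most of them for a Ccr2 read. Trem2 (chr17:48346401-48352276) was plentiful in members, with medians of 514 and 498 reads per 10000 panel reads of the cell in Abi3-/- and 565 and 642 in Abi3+/+. Apoe (chr7:19696244-19701310) had medians of 78.6 and 55.3 in Abi3-/- and 85.9 and 49.1 in Abi3+/+ on this scale. Cst7 (chr2:150570415-150578944) had medians of 51.8 and 105 in Abi3-/- and 164 and 129 in Abi3+/+. Cx3cr1 (chr9:120048683-120068296) had medians of 44.1 and 29.8 in Abi3-/- and 30.2 and 24.4 in Abi3+/+. These 4 genes chose the members, so their levels are given as a description. Other Trem2-positive cells that had a Cx3cr1 read held more of it, with medians of 65.9, 61.6, 86.8 and 49.7 in the order above. Those with a read of Apoe held less, at 48.4, 32.1, 27.5 and 28.9, and those with a read of Cst7 held less too, at 42.0, 57.3, 46.3 and 96.9.

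**Figure D1:**
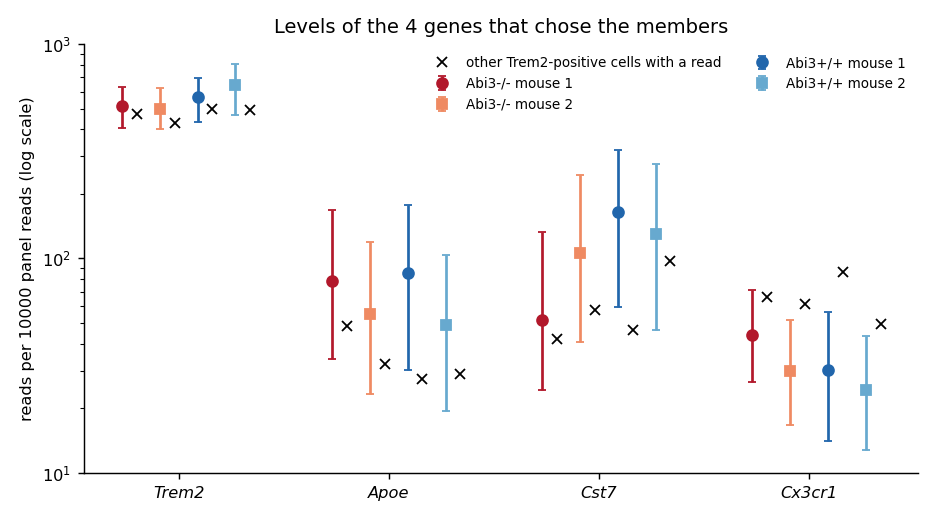
Median reads per 10000 panel reads of a cell (log axis) of the 4 genes of the rule in members, with the interquartile range over cells as bars, by mouse. Crosses are the medians of other Trem2-positive cells that had a read of the gene, which lie above the members for Cx3cr1 (49.7 to 86.8 against 24.4 to 44.1) and below them for Apoe and Cst7.

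The lowest nonzero values were 17 to 20 reads for Trem2, 6 to 8 for Apoe, 13 to 24 for Cst7 and 8 to 11 for Cx3cr1, because the deposited values are reads after error correction and not molecules. Members with under 30 reads of Cx3cr1 made up 6.72%, 13.6%, 17.5% and 16.1% of all members in Abi3-/- 1, Abi3-/- 2, Abi3+/+ 1 and Abi3+/+ 2. For Apoe these shares were 6.41%, 13.5%, 11.8% and 14.4%. Just outside the rule, cells that lacked 1 of the 4 genes most often lacked Cst7 (784, 667, 638 and 373 cells in the same order). Cells that lacked Apoe numbered 134, 436, 250 and 165. Cells that lacked Cx3cr1 numbered 68, 260, 131 and 224, and cells that lacked only Trem2 numbered 1, 1, 0 and 0. Background was read in 105 neutrophils (reads of S100a8, S100a9 and Cxcr2) and 292 T cells (reads of Cd3e and Trbc2). Cx3cr1 was read in 3.81% of the neutrophils and 2.74% of the T cells, and Apoe in 10.5% and 6.51%. All 4 genes were read together in 1 neutrophil and in 3 T cells, the latter being left out of the members by their Cd3e reads. T cells transcribe Cst7 themselves and had it in 59.9% of cells. The median depth was 29069 reads in neutrophils, 16917.5 in T cells and 31049.5 in members.

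Members were the deeper cells. Their median depth was 32074 and 29054 reads in Abi3-/- and 31848.5 and 33994 in Abi3+/+, against 22881, 18160, 18874.5 and 21930 in other Trem2-positive cells of the same mice. Between 28.4% and 33.7% of members had over 40000 reads, against 2.46% to 6% of the other cells. Ctsd, which encodes the lysosomal protease cathepsin D, alone took 27.0% and 38.1% of the members' reads in Abi3-/- and 33.9% and 31.6% in Abi3+/+, so that shares of the remaining genes are relative to it. No doublet caller was run beyond the upper limit of 59300 reads per cell.

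Reads of other cell types were few in members. Cd3e, Cd79a and Ccr2 were at 0 by the rule. At least 1 of 8 T cell markers was read in 1.42% to 2.75% of members of a mouse, with a summed level of 0.630 to 1.51 per 10000 reads against 3.24 to 6.02 in other Trem2-positive cells, and Trbc2, Cd3d and Cd8a were at 0 in all 4 mice. B cell markers were read in 0% to 0.527% of members. Monocyte and macrophage markers were read in 1.83% to 4.48%, with F13a1 and Cd163 at 0 in all 4 mice. Neutrophil markers were read in 0.598% to 2.27% of members of 3 mice and in 6.77% of those of Abi3-/- 2, where S100a8 was also frequent in the other Trem2-positive cells (neutrophil markers in 7.19%). Ependymal and astrocyte genes were read in 2.29% to 6.24%. Mbp, the myelin basic protein gene of oligodendrocytes, was read in 23.1% to 25% of members and in 14.8% to 21.3% of other Trem2-positive cells, and its part in the results was not tested.

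Members took a larger share of Trem2-positive cells in Abi3-/- mice than in Abi3+/+ mice. The share was 29.8% (655 of 2196 cells, exact 95% Clopper-Pearson interval 27.9% to 31.8%) in Abi3-/- 1 and 26.7% (1138 of 4269, 25.3% to 28.0%) in Abi3-/- 2. It was 13.7% (502 of 3674, 12.6% to 14.8%) in Abi3+/+ 1 and 11.7% (353 of 3021, 10.6% to 12.9%) in Abi3+/+ 2. Intervals cover counting error only. The genotypes did not overlap, with means of 28.2% ± 2.24 (SD, n = 2) and 12.7% ± 1.40 (SD, n = 2), a difference of 15.6 percentage points and a ratio of 2.23. A 2-sided exact permutation test over 2 against 2 mice gave p = 0.333, the smallest value this design allows. Over all kept cells the share was 28.2% and 25.3% in Abi3-/- and 13.2% and 11% in Abi3+/+, again without overlap (difference 14.6 points, exact permutation p = 0.333). With at least 30 reads demanded of each positive gene, the means were 21.8% and 8.94%, a ratio of 2.44. Among cells with 70 to 100 genes the ratio was 2.26, and with no cell filter it was 1.69.

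In Trem2- and Cx3cr1-positive cells without reads of the excluded genes, reads of Apoe and of Cst7 were each more frequent in the Abi3-/- mice. Both genes were read in 32.2% and 30.6% of such cells in Abi3-/- and in 15.1% and 15.7% in Abi3+/+, a difference of 16.1 points with the genotypes apart. Apoe was read in 70.8% and 48.6% of them in Abi3-/- and in 34.2% and 32.2% in Abi3+/+. Cst7 was read in 38.8% and 42.4% in Abi3-/- and in 22.6% and 23.0% in Abi3+/+. Both shares were apart between genotypes, and their exact permutation p was 0.333 with n = 2 mice per genotype, as small as it can be. The Abi3-/- mice differed from each other in how the rest was made up. Cells with Apoe and no Cst7 were 38.6% in Abi3-/- 1 and 18% in Abi3-/- 2, against 19.2% and 16.5% in Abi3+/+, so the genotypes overlapped. Cells with Cst7 and no Apoe were 6.59%, 11.7%, 7.51% and 7.32% in the same order and overlapped too. Cst7 was read more often where Apoe was: in 45.5%, 63.0%, 44.0% and 48.6% of Apoe-positive cells against 22.6%, 22.8%, 11.4% and 10.8% of Apoe-negative ones. The joint share was 1.17 to 2.12 times the product of the single shares in every mouse. Depth moves both detections in the same direction, and its part in this was not tested.

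**Figure D2:**
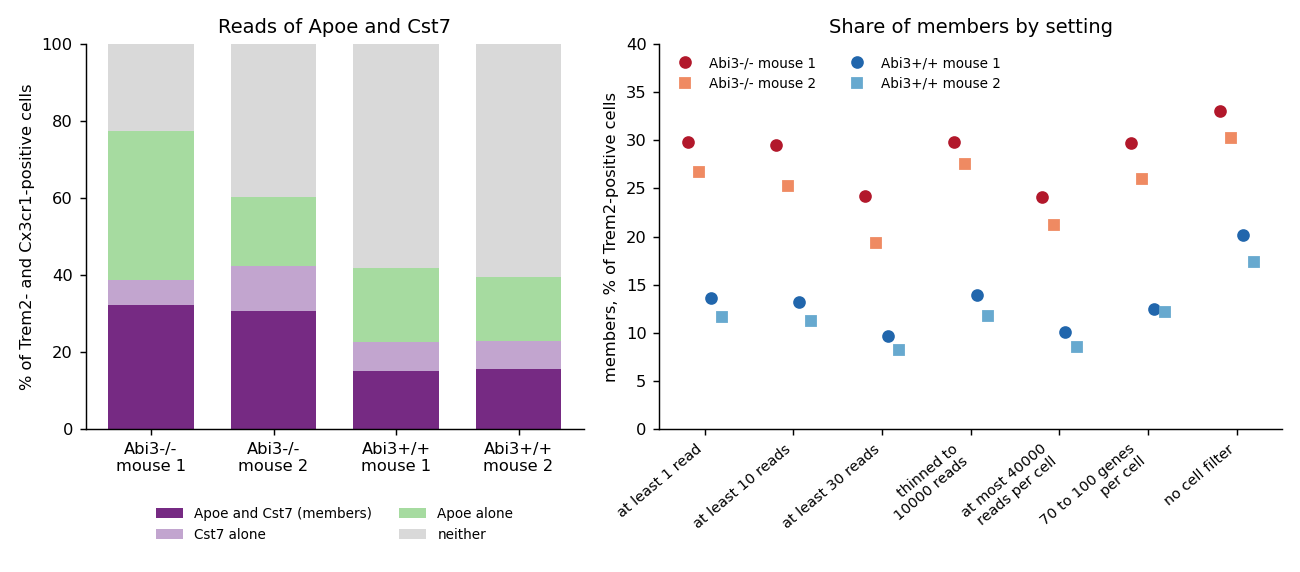
Left, Trem2- and Cx3cr1-positive cells of each mouse without reads of the excluded genes, by reads of Apoe and Cst7, as percent of those cells, with members (both genes) at the bottom of each bar. Right, members as percent of Trem2-positive cells under 7 settings of the rule and cell filter, 1 point per mouse, where the Abi3-/- points lie above the Abi3+/+ points in every setting (29.8% and 26.7% against 13.7% and 11.7% in the leftmost).

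Of the cells with reads of Trem2, Apoe and Cst7, most still had a Cx3cr1 read. The share was 90.6% (655 of 723) in Abi3-/- 1, 81.4% (1138 of 1398) in Abi3-/- 2, 79.3% (502 of 633) in Abi3+/+ 1 and 61.2% (353 of 577) in Abi3+/+ 2. Abi3-/- 2 and Abi3+/+ 1 thus lay close together. Library Abi3+/+ 2 had the lowest share of cells with a Cx3cr1 read among other Trem2-positive cells as well (72.5% against 84.1% to 91.7%), and the part of this in the difference was not tested. The means were 86.0% ± 6.50 and 70.2% ± 12.8 (SD, n = 2 each), a difference of 15.8 points (exact permutation p = 0.333). Among cells with 70 to 100 genes the genotypes overlapped, with a difference of 9.60 points (exact permutation p = 0.667). They overlapped with no cell filter too, where the difference was 12.2 points and Abi3-/- 2 stood at 79.3% against 80.8% in Abi3+/+ 1 (exact permutation p = 0.667). Without Abi3+/+ 2 the difference was 6.69 points.

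Members differed from other Trem2-positive cells in 101 of 347 genes (29.1%) at an adjusted p under 0.05, 46 higher (13.3%) and 55 lower (15.9%), by edgeR's quasi-likelihood test on reads summed per mouse with the mouse as a block. The 7 genes of the rule were taken out beforehand. Cells with reads of the excluded genes were left out of members but not of the others, which by construction lowers markers of T cells and monocytes in members. Of these, 6 of 7 T cell markers and 4 of 6 monocyte and macrophage markers were among the 55. With comparison cells free of such reads, 97 of 320 genes passed, 48 higher and 49 lower. The tests show which other genes went with the gate within each mouse. Levels are given as RPM, which are reads of a gene per 1000000 reads of the summed cells after TMM scaling. The median log2 difference over all genes tested was -0.40, and -0.84 where only library size was scaled, under which 27 genes were higher and 132 lower. Without Abi3-/- 2, 19 genes were called, all of them among the 101, with 17 higher and 2 lower. The lower ones were Egr1 and Nkg7, the latter a T cell marker. Of the genes named below as lower in this comparison, only Egr1 was thus called without that mouse. Without Abi3+/+ 2, 16 were higher and 9 lower, and limma on mean log-normalised expression called 16.

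All 12 DAM genes outside the rule were higher in members, with a median log2 difference of 1.36. Itgax, which encodes the integrin CD11c, stood at 2479 and 3557 RPM in members of Abi3-/- and 4058 and 5057 in members of Abi3+/+. In other Trem2-positive cells it stood at 797, 1146, 421 and 1199 (log2 difference 2.14, SE 0.30, edgeR adjusted p = 0.00888). It was read in 44.3%, 55.3%, 52.2% and 64.0% of members against 22.6%, 25%, 10.8% and 22.1% of the others, so that members were above in each mouse. Lilrb4a, an inhibitory immunoglobulin-like receptor, stood at 824, 2397, 1878 and 2488 RPM in members. It stood at 281, 590, 211 and 464 in the others, the largest difference of the list (log2 2.29, SE 0.27). Csf1, the ligand of the receptor that microglia need to survive, stood at 510, 473, 640 and 311 in members and at 141, 169, 115 and 94.7 in the others (log2 1.88, SE 0.19). Spp1 (chr5:104435111-104441053), which encodes the secreted protein osteopontin, stood at 656 and 571 in members of Abi3-/- and 275 and 203 in members of Abi3+/+. In the others it stood at 146, 142, 107 and 89.8 (log2 1.68, SE 0.21). The other 8 were Lyz2 (1.52), Lgals3 (1.41), Cd63 (1.32), Cd52 (1.15), Ccl6 (1.12), Ctsd (0.95), Fth1 (0.91) and Cd9 (0.83). The difference was above 0 in each mouse for all 12. All 12 were called with library size scaling, DESeq2, at most 40000 reads per cell and cells with 70 to 100 genes. There were 8 without Abi3-/- 2, 11 without Abi3+/+ 1, 8 without Abi3+/+ 2 and 3 by limma.

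**Figure D3:**
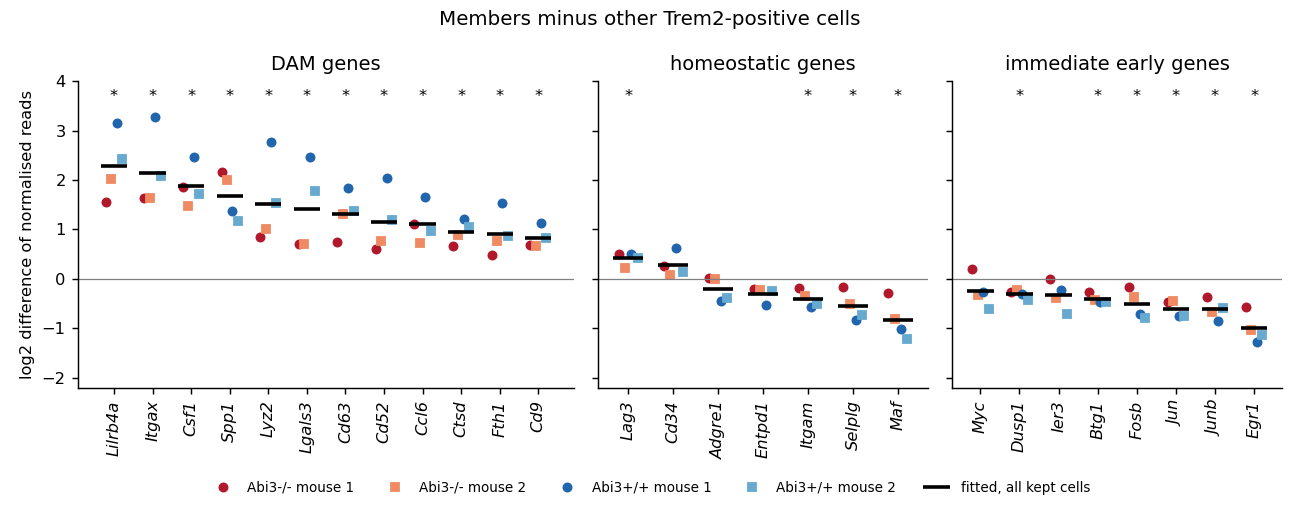
Log2 difference of normalised reads between members and other Trem2-positive cells, 1 point per mouse, with the fitted value as a bar and an asterisk at an edgeR adjusted p under 0.05. The 12 DAM genes lie above 0 in every mouse (fitted 0.83 to 2.29), the 7 homeostatic genes spread from 0.41 to -0.83, and 6 immediate early genes carry an asterisk below 0, while Fosl1 is not drawn because it had no read in members.

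Outside that list, Hif1a, the oxygen-sensing transcription factor, had the lowest p. It stood at 4071, 7113, 6228 and 6367 RPM in members against 1936, 3131, 2070 and 2747 in the others (log2 difference 1.26, SE 0.11, edgeR adjusted p = 0.00848). By the size of the difference the named genes also held Cxcr4, the receptor of the chemokine CXCL12 (2.09, SE 0.53), Cd5, a scavenger-like receptor also found on lymphocytes (2.07, SE 0.34), Il3ra, the interleukin-3 receptor alpha chain (1.94, SE 0.27), and Cd72, an inhibitory lectin receptor (1.79, SE 0.24). Il3ra stood at 442, 778, 1430 and 1170 in members and at 187, 266, 209 and 250 in the others, and Cd72 at 843, 2050, 722 and 2409 against 425, 575, 128 and 682. Members were above the others in each mouse for both.

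Of 7 homeostatic genes outside the rule, 3 were lower in members and 1 was higher, with a median of -0.30 against -0.40 over all genes. Maf, a transcription factor of macrophages, stood at 617, 301, 401 and 64.1 RPM in members and at 747, 529, 805 and 148 in the others (log2 difference -0.83, SE 0.18, edgeR adjusted p = 0.0219). Selplg, which encodes the selectin ligand PSGL-1, stood at 42845, 22250, 22556 and 17869 against 47680, 31534, 39894 and 29626 (-0.55, SE 0.13). Members were below the others in each mouse for both, and Itgam (-0.40) was lower too. Lag3 was higher by 0.41, a direction that turned under library size scaling, where 5 of the 7 were lower. None of the 7 was called without Abi3-/- 2, without Abi3+/+ 1 or without Abi3+/+ 2. Cd34, Adgre1 and Entpd1 did not pass the test.

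Immediate early genes, which are transcribed within minutes of a stimulus, were lower in members in 6 of 9 cases (66.7%, against 15.9% over all genes). Their median of -0.51 lay near the -0.40 over all genes. Egr1 stood at 8345, 9228, 8320 and 11327 RPM in members and at 12301, 18861, 20059 and 24968 in the others (log2 difference -1.001, SE 0.13, edgeR adjusted p = 0.00888). Junb (-0.62), Jun (-0.60), Fosb (-0.51), Btg1 (-0.41) and Dusp1 (-0.30) were lower as well. Without Abi3-/- 2 or without Abi3+/+ 2 only 1 of these was called, and limma called 0.

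Chemokine and cytokine genes did not move in 1 direction. Of 8 chemokine genes tested, Ccl6 (1.12), Ccl3 (1.00), Ccl4 (0.93) and Cxcl16 (0.75) were higher in members. Ccl2, which draws in monocytes, was lower, at 504, 573, 273 and 452 RPM against 789, 1244, 939 and 1772 (log2 difference -1.38, SE 0.24). Of 10 cytokine genes, Csf1 and Il1b (1.22, SE 0.21) were higher and Il6 (-0.86), Tnf (-0.68) and Il1a (-0.47) were lower, with a median of -0.02. Over all genes 13.3% were higher and 15.9% lower, against 20% and 30% of the cytokine genes and 50% and 12.5% of the chemokine genes. Il1b stood at 149, 786, 145 and 234 in members and at 103, 251, 57.8 and 92.3 in the others, with the highest value of both populations in Abi3-/- 2. With Abi3-/- 2 left out, 3 chemokine genes and 1 cytokine gene were called higher, and none of either list was called lower. The chemokine list had a median of 0.84, and of 0.05 with at most 40000 reads per cell. Il7r, the interleukin-7 receptor, was lower, at 83.7, 73.2, 70.5 and 46.5 against 181, 295, 278 and 276 (-1.92, SE 0.27).

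Among the inhibitory receptors and ligands, 6 of 11 were higher and 2 were lower, with a median of 0.41. Besides Lilrb4a and Cd72, the higher ones were Pdcd1, which encodes the receptor PD-1 (1.06, SE 0.25), its ligand Cd274 (0.98, SE 0.24), Cd22, a receptor of sialic acid (0.88, SE 0.16), and Lag3. With library size alone the list's median was -0.03, and 3 were higher and 4 lower. Without Abi3-/- 2 or without Abi3+/+ 2, 3 were higher and 0 lower. Lysosomal genes were higher in 4 of 5 cases (Lyz2, Cd63, Ctsd and Lamp1, the last at 0.47), with a median of 0.95, and in 2 cases without either of those mice. Of 10 interferon response genes, Ifitm2 (1.21) and Ifitm3 (0.99), which block the entry of viruses, were higher, and Tmem173, the DNA sensor adaptor STING (-0.73), and Ifngr1 (-0.64) were lower. Of 12 Toll-like receptor pathway genes, Tlr2 (0.57) and its co-receptor Cd14 (0.47) were higher, and Tlr3 (-0.55), Tlr4 (-0.54) and Myd88 (-0.51) were lower. With limma, the difference of Cd14 was below 0. Among 7 MHC genes, the class I gene H2-K1 (0.60) was the only one to pass, and of 7 complement and Fc receptor genes Fcer1g (0.48) was. The shares higher in members in the interferon (20%), Toll-like receptor (16.7%), MHC (14.3%) and complement (14.3%) lists lay near the 13.3% over all genes, and the shares lower in the first and second of these were 20% and 25% against 15.9%. Of 5 iron and heme genes, Fth1 and Slc11a1 (0.52) were higher and Slc25a37, which carries iron into mitochondria, was lower (-0.77, SE 0.13). None of 9 cell cycle genes passed the test. Ifitm3 was the only gene called without Abi3-/- 2 in the interferon, Toll-like receptor, MHC, complement and iron lists.

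Members had lower levels of several DAM genes and higher levels of immediate early genes than their Cx3cr1-negative counterparts, which are part of the other Trem2-positive cells. By the same edgeR test, 33 of 274 genes (12%) passed, 21 higher in members (7.66%) and 12 lower (4.38%), with a median log2 difference of 0.17 over all genes. Scaling by library size alone gave a median of 0.34, with 44 higher and 8 lower, and DESeq2 size factors in edgeR gave 15 higher and 16 lower. Counterparts were shallower cells with fewer genes. Their median depth was 23937.5, 20359.5, 23807 and 28005.5 reads, with a median of 70.5, 60, 55 and 65 genes against 86, 85, 81 and 80 in members. The comparison was therefore also made among cells with 70 to 100 genes, which held 34, 83, 30 and 93 counterparts. It called 9 genes there, 8 of them among the 33, and all 33 kept their direction. Without Abi3-/- 2, 12 genes passed, and without the mouse block 0 of 249 did (27 at an unadjusted p under 0.05).

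DAM genes were lower in members than in counterparts in 7 of 12 cases and higher in none, with a median of -0.59. Spp1 stood at 528, 459, 222 and 166 RPM in members and at 1009, 1166, 1373 and 624 in counterparts (log2 difference -1.70, SE 0.29, edgeR adjusted p = 0.0137). Lgals3, the gene of galectin-3, stood at 201, 377, 453 and 891 against 957, 1146, 1037 and 1656 (-1.48, SE 0.23). Fth1, the ferritin heavy chain, stood at 45437, 60336, 63442 and 55038 against 64915, 96801, 121855 and 82600 (-0.68, SE 0.08). In all 3 genes the counterparts were above the members in every mouse. Cd52 (-0.64), Ccl6 (-0.62), Cd63 (-0.34) and Ctsd (-0.33) were lower as well. Itgax (-0.35), Csf1 (-0.56), Lilrb4a (-0.74), Lyz2 (-0.30) and Cd9 (0.01) did not pass the test. Among cells with 70 to 100 genes, Spp1 (-1.79), Lgals3 (-1.75), Cd52 (-0.54), Fth1 (-0.47) and Cd63 (-0.31) passed. Without Abi3-/- 2 or without Abi3+/+ 2, 2 of the 12 passed. Outside the list, Lgals1, the gene of galectin-1, stood at 141, 215, 299 and 284 in members and at 387, 617, 1332 and 655 in counterparts (-1.58, SE 0.20), and Anxa5 (-0.72), Gapdh (-0.41), Hif1a (-0.28) and Fcer1g (-0.28) were lower too.

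Immediate early genes were higher in members than in counterparts in 6 of 8 cases, with a median of 0.89. Egr1 stood at 6728, 7412, 6723 and 9249 RPM against 4491, 3632, 2304 and 4815 (log2 difference 1.02, SE 0.15, edgeR adjusted p = 0.00982). Junb (0.98), Fosb (0.98), Jun (0.93), Dusp1 (0.66) and Btg1 (0.46) were also higher. Among cells with 70 to 100 genes the median was 0.30 and only Jun passed (0.48, edgeR adjusted p = 0.0411), and 3 of the 8 passed over all kept cells without Abi3-/- 2. Of the 7 homeostatic genes, Selplg (0.43, SE 0.10) and Adgre1, the macrophage marker F4/80 (0.28, SE 0.07), were higher, with a median of 0.31. Selplg stood at 34539, 17870, 18225 and 14591 in members and at 26223, 14503, 10345 and 12475 in counterparts, above them in each mouse. None of the 7 passed at 70 to 100 genes, where Selplg was at 0.29 and Adgre1 at 0.18, or with any 1 mouse left out. Further genes higher in members were Slc25a37 (1.00), Il1a (0.83), Tmem173 (0.63) and Il6ra (0.62). No chemokine gene was higher, and none of the 7 MHC, 12 Toll-like receptor or 11 inhibitory receptor genes passed.

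**Figure D4:**
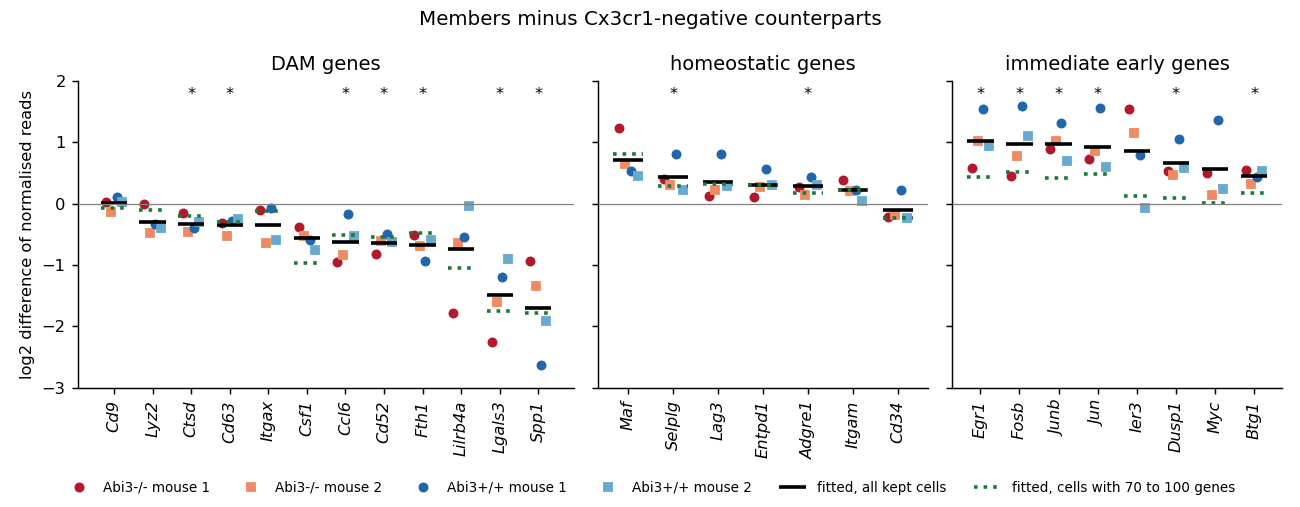
Log2 difference of normalised reads between members and Cx3cr1-negative counterparts, 1 point per mouse, with the fitted value over all kept cells (black bar) and over cells with 70 to 100 genes (dotted bar). Asterisks mark an edgeR adjusted p under 0.05 over all kept cells. The fitted values of all DAM genes except Cd9 (0.01) lie below 0, down to -1.70. The immediate early genes lie nearer to 0 in the dotted bars (median 0.30 against 0.89).

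The members of Abi3-/- and Abi3+/+ mice were compared next, which asks whether the deletion went with another state of the same cells. None of 270 genes passed in edgeR (0%), with 11 at an unadjusted p under 0.05 and the lowest adjusted p at 0.860. With so few mice, this does not show that members were in the same state in both genotypes. DESeq2 called 1, which was Spp1, and limma called 0 (13 at an unadjusted p under 0.05). The values of the 2 genotypes did not overlap in 96 genes (35.6%), 55 higher and 41 lower in Abi3-/-, and none of the 96 was called by edgeR. Genotype labels put on these mice at random would separate the values of a gene with a probability of 0.333, which is near that share.

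Spp1 stood at 513 and 447 RPM in members of Abi3-/- and at 213 and 160 in members of Abi3+/+ (log2 difference 1.37, SE 0.27, unadjusted p = 0.00731, edgeR adjusted p = 0.860). DESeq2 gave it 1.33 (SE 0.30, adjusted p = 0.00353). Its reads came from 16.3% and 6.41% of members in Abi3-/- and from 5.18% and 6.23% in Abi3+/+, with Abi3-/- 2 and Abi3+/+ 2 close together. S100a10, a calcium-binding protein gene, stood at 249 and 157 against 76.4 and 43.9 (1.75, SE 0.47). Ifngr1, the interferon gamma receptor, stood at 2770 and 2309 against 1797 and 1730 (0.53, SE 0.17). Lower in Abi3-/- were Il15ra at 138 and 169 against 261 and 321 (-0.92, SE 0.28), Fosb at 862 and 1368 against 1927 and 2260 (-0.91, SE 0.29) and Il3ra at 346 and 609 against 1106 and 918 (-1.08, SE 0.35). Adgrg3, an adhesion receptor gene with few reads, stood at 3.25 and 1.97 against 20.9 and 12.2. Igkc and Cd40 were at 0 in members of both Abi3+/+ mice, which allows shares of up to 0.598% and 0.850% of cells with a read and sets no limit on cells that express the gene, and at 1.97 to 6.47 RPM in Abi3-/-. All these genes had the edgeR adjusted p of 0.860.

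None of the 12 DAM genes passed by genotype in edgeR with all 4 mice. Their median log2 difference was -0.19 against 0.07 over all genes, with 9 below 0, and it was 0.012 without Abi3-/- 1 and -0.36 without Abi3-/- 2. Itgax stood at 1939 and 2782 in Abi3-/- against 3137 and 3969 in Abi3+/+ (-0.59, SE 0.26), and Lgals3 at 195 and 368 against 433 and 856 (-1.20, SE 0.51). Lyz2 and Ccl6 were lower in Abi3-/- without overlap as well, and Spp1 was the sole DAM gene that was higher without overlap. In all, 41.7% of DAM genes did not overlap, close to the 35.6% over all genes. The homeostatic genes had a median of 0.40, with Cd34 and Itgam higher without overlap (28.6% of the list, under the 35.6% over all genes). That median was 0.11 without Abi3-/- 1 and 0.22 without Abi3+/+ 2. Ccl3 stood at 3582 and 6937 in Abi3-/- against 9432 and 7497 in Abi3+/+, and Ccl4 at 2418 and 4818 against 6336 and 5520. Ccl9 at 1519 and 1169 against 911 and 981 and Ccl2 at 394 and 448 against 211 and 355 were higher in Abi3-/- without overlap. Without Abi3-/- 2, 13 genes passed in edgeR. Of these, Spp1 (1.503), S100a10 (2.09), Selplg (1.13), Ccr1 (3.91), H2-Ab1 (1.75), H2-Aa (2.42) and Cxcl9 were higher, and Ccl3 (-1.20), Ccl4 (-1.26), Il3ra (-1.51), Fosb (-1.25), Lilrb4a (-1.37) and Mmp12 were lower, where the lone Abi3-/- mouse was assumed to vary like the others. Without Abi3-/- 1, Qpct and Lat2 passed, the genes in which library Abi3-/- 2 stood apart.

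**Figure D5:**
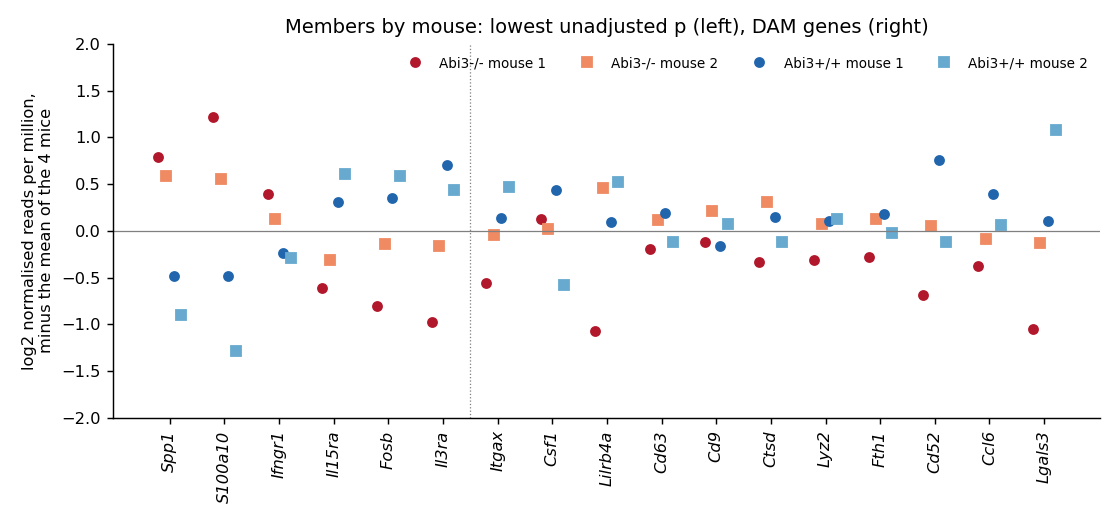
Log2 normalised RPM in members, minus the mean of the 4 mice, 1 point per mouse. Left of the dotted line are Spp1, S100a10, Ifngr1, Il15ra, Fosb and Il3ra, where the genotypes do not overlap (Spp1 513 and 447 against 213 and 160). They are among the genes named for a low unadjusted p. Igkc, Cd40 and Adgrg3, which had few reads and a lower p than Fosb, Il3ra and Ifngr1, are not drawn. Right of the line are the other 11 DAM genes, none of which passed.

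The genotype difference in members was also set against that in other Trem2-positive cells. None of 347 interaction terms passed in edgeR (0%), with 28 at an unadjusted p under 0.05. On simulated data that test called none of the changed genes, but there every gene had the same common spread, unlike the genes measured here. With 2 mice per genotype, the lack of calls does not show that the genotype difference was equal in both populations. DESeq2 called 3 (S100a8, Ccl2 and Lgals3) and limma called 3 (Cd9, Rgs1 and Cd79b). Lgals3 had an interaction of -1.43 (SE 0.40) in DESeq2, and its levels in members and other cells were 249 against 152 in Abi3-/- 1, 470 against 288 in Abi3-/- 2, 560 against 101 in Abi3+/+ 1 and 1091 against 319 in Abi3+/+ 2. The gap was thus wider in both Abi3+/+ mice, and the test in edgeR did not pass. Over the 12 DAM genes the interaction had a median of -0.58, against 0.09 over all genes. Spp1 went the other way, with log2 differences between members and other cells of 2.17 and 2.01 in Abi3-/- and 1.37 and 1.18 in Abi3+/+.

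Members varied among themselves within each mouse. Itgax, Csf1 and Lilrb4a were all read in 5.50%, 9.93%, 9.96% and 6.52% of members in Abi3-/- 1, Abi3-/- 2, Abi3+/+ 1 and Abi3+/+ 2, against 0.519%, 1.21%, 0.504% and 0.900% of other Trem2-positive cells. In counterparts the shares were 2.94%, 9.23%, 8.40% and 6.70%, close to those of members in 3 of the 4 mice. Ccl3 and Ccl4 were read together in 24.0% and 40.4% of members in Abi3-/- and in 49.8% and 41.4% in Abi3+/+, so that Abi3-/- 2 and Abi3+/+ 2 lay close together. Egr1, Fosb and Jun were read together in 15.7% and 20.5% in Abi3-/- and in 25.9% and 24.9% in Abi3+/+, without overlap (exact permutation p = 0.333, n = 2 mice per genotype). The genotypes were further apart in other Trem2-positive cells, at 20.4% and 28.2% against 45.8% and 43.2%. The MHC class II genes H2-Aa and H2-Ab1 and the invariant chain gene Cd74 were read together in 8.40% of members of Abi3-/- 1 but in 0.967%, 2.59% and 0.567% of those of the other mice, so that 1 mouse set the level of this group. The same library was highest in other Trem2-positive cells (5.71% against 0.926% to 1.13%) and in counterparts (13.2% against 1.34% to 3.82%). H2-Aa accordingly stood at 1393 RPM in Abi3-/- 1 and at 112, 483 and 60.5 in the others. Top2a and Mki67, genes of dividing cells, were read together in 0.153% to 0.439% of members.

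Across the members of a mouse (n = 353 to 1138 cells), Spearman's rho with the Cx3cr1 share of reads was -0.23 to -0.18 for Lyz2 and -0.23 to -0.17 for Itgax. It was 0.20 to 0.31 for Selplg and 0.22 to 0.25 for C1qa, a complement gene. With Cst7, rho was 0.38 to 0.46 for Lyz2, and -0.45 to -0.38 for Selplg, -0.50 to -0.43 for C1qa and -0.42 to -0.30 for Junb. The sign was the same in all 4 mice for each of these pairs. These values describe cells that share a library and were chosen by reads of Cx3cr1 and Cst7, and they are shares of the same panel reads, in which Ctsd dominated (rho of Ctsd with Cst7 0.40 to 0.50 and with Cx3cr1 -0.39 to -0.30).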

How the data were processed

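Brain cells of 4 mice, grouped by the genotype in their labels, were measured with 1 targeted library each. The authors ran the BD Rhapsody Targeted Analysis Pipeline at default settings and deposited, for each cell, the read counts of the panel genes as corrected by its distribution-based error model. The counts are reads, not molecules, and were deposited without a cell filter. Gene positions are from the RefSeq annotation of GRCm38.p6, the build mm10 that the submitters' processing notes name.

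Here cells with at least 40 genes with a read and at most 59300 reads were kept (13820 of 21172), after the limits in the paper's methods with its lower limit read as genes. Kept reads were 61058416, 102612276, 82557555 and 78817636 in Abi3-/- 1, Abi3-/- 2, Abi3+/+ 1 and Abi3+/+ 2. Members held 21611408, 35697676, 16413650 and 12387583 reads. Reads of a cell are not independent molecules, so intervals and floors (3 counts) cover counting error only. The rule of positive and absent genes chose the members, and members and gene lists were chosen with earlier results of these data known.

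Counts were summed per mouse and population and tested with edgeR 4.0.16 in R 4.3.3 (default filter, TMM, quasi-likelihood, Benjamini-Hochberg over all genes tested, threshold 0.05), with the mouse as a block between populations. The 7 genes of the rule were removed there and kept in the genotype test. Shares were compared by exact permutation tests over mice (scipy 1.17.1). Named in each direction were up to 10 genes with the largest difference among those that passed, changed the same way in all mice and were read in at least 5% of either population; for genotype, up to 10 with the lowest unadjusted p under 0.05 and no overlap. Genes of the lists are described by list. A few genes that met these rules or belonged to a list are not reported here, and list counts and medians leave them out. Those called by single alternatives, Hif1a, Qpct, Lat2, Lipa, Nkg7, Ccl9 and the genes of the correlations within members were named after their values were seen. The alternatives were DESeq2 1.42.0, its size factors or library size alone in edgeR, limma 3.58.1 on mean log-normalised expression, no gene filter, thinning to 10000 reads per cell, at least 10 reads per gene, at most 40000 reads per cell, no cell filter, comparison cells without the excluded genes, no mouse block, a replicate block and each mouse left out. Chosen after seeing the data were at least 30 reads per gene, 70 to 100 genes per cell and the removal of genes with unlike lowest values. The test was checked on simulated data with known changes. At the common spread of these data, given to every simulated gene, it called a minority of the changed genes between populations. It called few by genotype and none for the interaction. Spread differs between genes, so this recovery does not hold for each of them. The bulk and cell culture data of the study were not analysed here.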

Additional observations from a re-analysis of the deposited data

Results flagged for a closer look

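Some cells outside the cell filter also carried the combination of genes that chose the members. As a share of the Trem2-positive cells outside it, they were more frequent in the Abi3-/- mice than in the Abi3+/+ mice. Of Trem2-positive cells over the read limit, 89.8% (185 of 206) in Abi3-/- 1 and 85.3% (355 of 416) in Abi3-/- 2 passed the rule, above the 84.6% (407 of 481) and 64.7% (295 of 456) in Abi3+/+. Of Trem2-positive cells under the gene minimum, 6.90% (12 of 174) and 7.62% (26 of 341) passed in Abi3-/-, above the 3.53% (15 of 425) and 1.43% (4 of 280) in Abi3+/+. Over the read limit Abi3-/- 2 and Abi3+/+ 1 lay close together, and neither difference was tested. Of all cells that passed the rule, however, the read limit removed a larger part in Abi3+/+. It took 407 of 924 and 295 of 652 there, against 185 of 852 and 355 of 1519 in Abi3-/-. The genotype ratio of the share of members in Trem2-positive cells was 1.69 with no cell filter and 2.23 with it. It was 2.43 with at most 40000 reads per cell. Cells outside the filter entered no comparison except the one without a cell filter, and the part of doublets in the deepest cells was not tested.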

How the results depend on the processing

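The higher share of members in Abi3-/- kept its direction in every setting, with a difference of 13.98 to 17.2 points of Trem2-positive cells when a mouse was left out, 13.2 to 16.1 of all kept cells, and 6.69 to 24.8 for the share with a Cx3cr1 read. Thinning removed few detections, because the lowest nonzero values are many reads, so it does not stand in for fewer molecules.

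Against other Trem2-positive cells, 101 genes passed, against 159 with library size alone, 168 with DESeq2, 16 with limma and 19 to 87 with a mouse left out (87 without Abi3-/- 1, 19 without Abi3-/- 2, 47 without Abi3+/+ 1, 25 without Abi3+/+ 2). The 46 higher and 55 lower became 17 and 2 without Abi3-/- 2, 29 and 18 without Abi3+/+ 1 and 16 and 9 without Abi3+/+ 2. Against counterparts, 33 passed, against 52, 53 and 97 in the same order, 9 among cells with 70 to 100 genes, 0 without the mouse block (27 at an unadjusted p under 0.05) and 12 to 28 with a mouse left out. The split in limma was 92 higher and 5 lower. Within members, DESeq2 called 1 gene by genotype, and 0 to 13 passed with a mouse left out. For the interaction, DESeq2 called 3 and limma 3, and 0 to 2 passed with a mouse left out. The cause of these changes was not tested. Of the 101 calls, 98 kept their direction with library size alone (not Lag3, Cd48 and Ly86), 99 with limma (not Cd14 and Ccl5) and 100 among cells with 70 to 100 genes (not S100a8), as did 97 of the 99 tested against comparison cells without the excluded genes. The other settings turned none of them, and none of those run turned any of the 33. The labels do not say that a replicate number marks a shared batch or litter. The deviations of the mice numbered 1 from their group means correlated at 0.34 over 270 genes, and whether equal numbers share a batch was not tested. The replicate block gave 0 genes (12 at an unadjusted p under 0.05). With 2 mice per genotype, a permutation test over mice cannot reach 0.05.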

Other observations

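Some genes outside the lists also set members apart from other Trem2-positive cells in edgeR, and they were chosen after their values were seen. Anxa5, which encodes the phosphatidylserine-binding annexin A5, stood at 1632 and 2409 RPM in members of Abi3-/- and 3016 and 2740 in members of Abi3+/+, against 1140, 1146, 663 and 865 in the others (log2 difference 1.36, SE 0.27). Nrp1, the coreceptor neuropilin-1, stood at 4341, 4202, 4940 and 5036 against 2769, 2247, 2277 and 2571 (0.91, SE 0.10), and Gapdh, an enzyme of glycolysis, at 16107, 20869, 18021 and 16602 against 11206, 13380, 7413 and 8622 (0.85, SE 0.14). Lower in members were Casp8, the initiator caspase-8, at 1856, 1374, 1241 and 1339 against 2341, 2117, 2196 and 2162 (-0.62, SE 0.10), and Il6ra, the interleukin-6 receptor, at 3842, 2593, 2698 and 2727 against 4920, 3927, 4395 and 4558 (-0.60, SE 0.09). Members lay on the same side of the others in every mouse for these 5 genes.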
